A study of Mus musculus with 6 samples.

Results

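The VEGF ligands and receptors were described in the cardiac side population (SP), heart cells that pump out the DNA dye Hoechst. The members were named as genes of this family, with earlier results of these data known and without a rule on their values. They are the receptors Kdr, Flt1 and Flt4 and the ligands Vegfa, Vegfb, Vegfc and Pgf. All 7 were found among the 50600 genes of the deposited count table, and all 7 passed the filter on low counts that left 13475 protein-coding genes for testing. RNA-seq was carried out on 6 libraries, 3 from wild-type (wt) C57BL/6NRj mice and 3 labelled flt3L-/-. The latter came from C57BL/6Flt3Ltml/mx mice, whose substrain the paper does not give. These knock-out mice lack Flt3 ligand, a growth factor for blood cell precursors. The mice of both groups were between 8 and 12 weeks old, and the labels give no treatment for either. Each library came from 1 sort of cardiac cells pooled from 4 mice, after depletion of cardiomyocytes and erythrocytes, so a difference between single mice cannot be seen. A wt and a knock-out sort were made on each of 3 dates. The 2 libraries of a date form a pair, and pairs 1, 2 and 3 follow the order of the dates.

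VEGF ligands are secreted dimers that bind receptor tyrosine kinases, found mainly on endothelial cells. Vegfa acts through Kdr (VEGFR2), the main signalling receptor of blood vessels, and Flt1 (VEGFR1) binds Vegfa, Vegfb and Pgf, holding Vegfa away from Kdr. Vegfc acts mainly through Flt4 (VEGFR3), the receptor best known from lymphatic vessels. In the heart, cardiomyocytes and stromal cells are known sources of the ligands, and the vessel wall is the known site of the receptors.

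Flt3l, the targeted gene, was read at 8.67, 10.8 and 12.1 CPM (counts scaled to library size) in the wt libraries of pairs 1, 2 and 3, while the libraries labelled flt3L-/- held 13.6, 12.4 and 14.4 CPM. Its reads were therefore not reduced in any of the libraries labelled flt3L-/-, and every direction below rests on the labels alone. Which part of the gene the counted reads came from is not known here. Total counts lay between 24370913 and 31145519 per library, at which 3 counts, taken as the detection limit, equal 0.109 to 0.127 CPM. This limit covers counting error only, since the reads carry no molecular identifiers. The SP label was checked against its markers. Abcg2, the dye pump, lay between 147 and 274 CPM, and Ly6a, which encodes Sca1, between 523 and 1791 CPM. All 11 endothelial markers, Pecam1 and Cdh5 among them, were detected in each library, with a sum between 5042 and 7811 CPM. The study sorted the complete SP or its Sca1+/CD31- fraction, where CD31 is the product of Pecam1. The labels name the cardiac side population, and the study describes sequencing of freshly isolated SP cells. Neither states outright which sort these libraries hold. Pecam1 itself lay between 873 and 1524 CPM in the 6 libraries. All 8 fibroblast markers were also detected, and their sum ranged from 3624 to 17996 CPM.

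No gene of the 13475 was called between the groups (0.0% at an adjusted p under 0.05 in edgeR's quasi-likelihood test), and no member was. At an unadjusted p under 0.05 there were 484 genes (3.59%), none of them a member. DESeq2 called 21 genes (0.156%) and no member. The paper's own edgeR test of these libraries listed genes at an adjusted p under 0.05, none of them a member. Why edgeR called no gene here was not tested. The CPM values of wt and of the libraries labelled flt3L-/- overlapped for all 7 members, while 6.45% of the genes tested did not overlap. Fold changes are given on the log2 scale for flt3L-/- over wt, with the sorting date as a covariate. Pgf had the only member difference with the same sign in 3 of 3 pairs, a pattern that 25.7% of all genes showed.

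Kdr (ENSMUSG00000062960) lies on the minus strand of chromosome 5 from 75932827 to 75978458 in GRCm38 and was the most abundant member. Its level was 3385, 3883 and 3445 CPM in the wt libraries of pairs 1, 2 and 3, and 3727, 2730 and 3119 CPM in those labelled flt3L-/-. The lowest and the highest of the 6 libraries were thus both from pair 2, and the groups overlapped. The mean was 3571 ± 272 CPM (SD, n = 3) for wt and 3192 ± 502 CPM (SD, n = 3) for flt3L-/-. The log2 fold change of Kdr was −0.17 (standard error 0.20, 95% interval −0.69 to 0.35, adjusted p = 0.973 in edgeR). The pairs did not share a sign, with differences of 0.14, −0.51 and −0.14. Over all 6 libraries the level of Kdr varied by 1.42-fold, the narrowest range of the members. Per kb of exons it ranked 81 among the 13475 genes.

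Flt1 (ENSMUSG00000029648), the decoy-like receptor, lies on the same chromosome and strand from 147561604 to 147726011. The wt libraries held 601, 707 and 877 CPM of Flt1, and the libraries labelled flt3L-/- held 985, 623 and 786 CPM. The highest level was in the knock-out library of pair 1 and the lowest in the wt library of the same pair, so the groups overlapped. The means were 728 ± 139 CPM (SD, n = 3) and 798 ± 181 CPM (SD, n = 3). The log2 fold change of Flt1 was 0.12 (standard error 0.24, 95% interval −0.49 to 0.73, adjusted p = 0.977 in edgeR). Pair 1 differed by 0.71, against −0.18 in pair 2 and −0.16 in pair 3. Without pair 1 the fitted value turned to −0.17. Flt1 is transcribed into a membrane-bound and a soluble form, and the counts per gene do not separate them. Flt3, the receptor of the deleted ligand, lies 161 kb from Flt1 and was found at 0 to 4.28 CPM.

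Flt4 (ENSMUSG00000020357) lies on the plus strand of chromosome 11 from 49609263 to 49652739. Its level was 147, 194 and 214 CPM in wt and 257, 161 and 165 CPM in those labelled flt3L-/-. As for Flt1, the extremes were the wt and the knock-out library of pair 1, and the groups overlapped. The means were 185 ± 34.4 CPM (SD, n = 3) and 194 ± 54.3 CPM (SD, n = 3), with a log2 fold change of 0.05 (standard error 0.27, 95% interval −0.67 to 0.76, adjusted p = 0.990 in edgeR). The difference was 0.80 in pair 1, −0.27 in pair 2 and −0.38 in pair 3, and without pair 1 the fitted value was −0.32. The sum of the 6 lymphatic markers, none at 0, ranged from 56.2 to 187 CPM in wt and from 20.03 to 200.4 CPM in flt3L-/-. Prox1, the master regulator of lymphatic identity, lay between 2.73 and 12.1 CPM. The lymphatic sum was lowest in the knock-out library of pair 3, at 20.03 CPM against 56.2 CPM in its wt partner, where Flt4 was 165 and 214 CPM. Its part in the level of Flt4 was not tested.

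**Figure D1:**
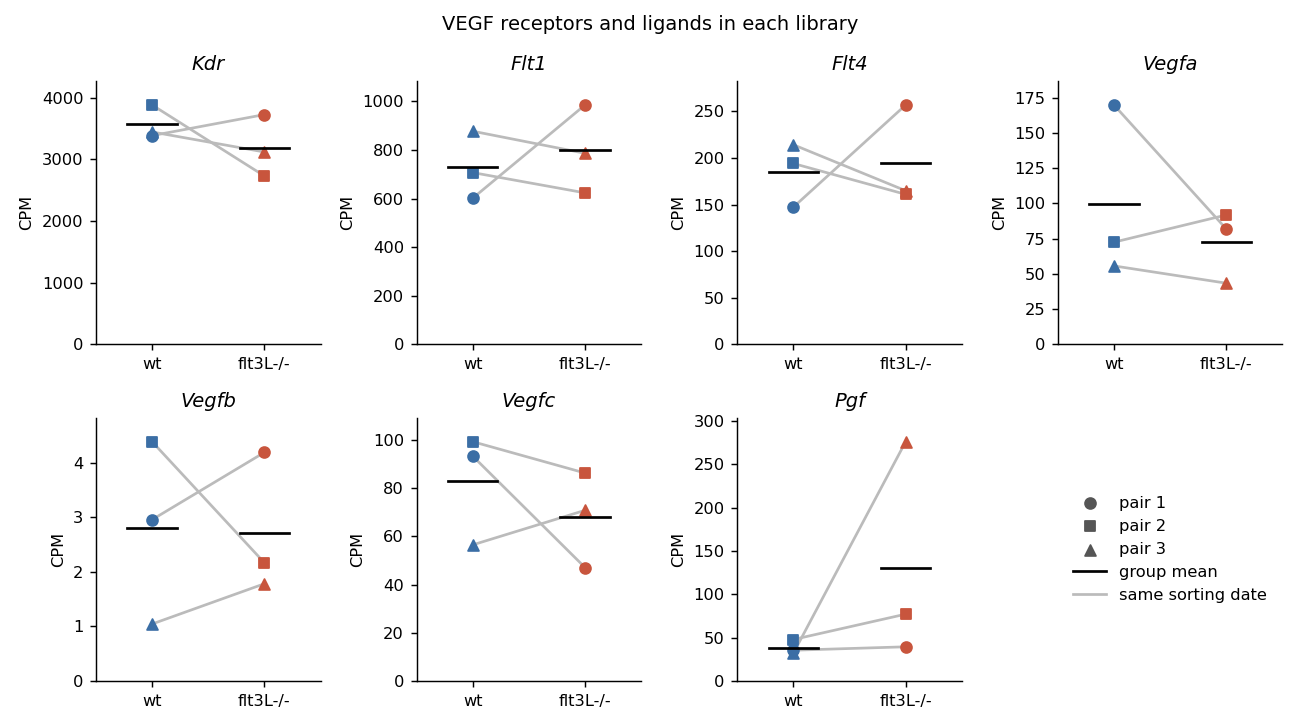
CPM of each member in each library, in wt (blue) and in the libraries labelled flt3L-/- (red), with a grey line joining the libraries of the same sorting date and a black bar at the group mean (n = 3). The groups overlap in each panel, and the Pgf value of 276 CPM in pair 3 stands above the other 5 libraries.

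The ratio of Flt1 to Flt4 varied less than the ratios of Kdr to either. Per kb of exons, Flt1 was between 2.22 and 2.91 times as high as Flt4 in the 6 libraries, and Kdr between 13.2 and 21.0 times. Kdr was 8.42, 8.21 and 5.87 times as high as Flt1 in wt, and 5.66, 6.55 and 5.93 times as high in the libraries labelled flt3L-/-, so the ratios overlapped. Kdr made up between 79.8% and 85.7% of the summed receptor level per kb, Flt1 between 10.2% and 14.1%, and Flt4 between 4.09% and 6.04%. Across the 6 libraries the log2 CPM of Flt1 and Flt4 had a Pearson correlation of 0.90, that of Kdr with Flt4 was 0.61 and that of Kdr with Flt1 was 0.46. These are descriptions of 6 points that share sorting dates and total counts.

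The promoters of Kdr and Flt1 are shown because these were the most abundant receptors and because ETS factors, whose core motif is GGAA, are known regulators of endothelial genes. The sequences are the bases just upstream of the gene from RefSeq on GRCm38.p6, written 5′ to 3′ on the gene's minus strand. Capitals mark GGAA or its reverse complement TTCC.
Kdr, chr5:75978459-75978705, 247 bases: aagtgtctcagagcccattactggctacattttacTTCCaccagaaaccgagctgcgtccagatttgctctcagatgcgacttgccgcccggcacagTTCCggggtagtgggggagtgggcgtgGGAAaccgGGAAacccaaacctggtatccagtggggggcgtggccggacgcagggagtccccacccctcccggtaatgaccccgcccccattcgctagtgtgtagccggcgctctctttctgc
Flt1, chr5:147726012-147726261, 250 bases: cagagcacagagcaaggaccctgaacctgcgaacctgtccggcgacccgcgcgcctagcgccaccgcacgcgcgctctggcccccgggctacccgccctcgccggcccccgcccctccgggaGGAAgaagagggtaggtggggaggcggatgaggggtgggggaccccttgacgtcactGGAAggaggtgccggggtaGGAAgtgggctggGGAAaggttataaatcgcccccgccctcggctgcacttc
Each window held 4 matches on both strands together. GGAA or TTCC occurred in 93.4% of the 32851 promoter windows of 250 bases, and 33.4% of the windows held 4 or more matches. In the first RefSeq promoter of the other members, there were 6 matches for Vegfa, 2 for Flt4, 1 each for Vegfb and Vegfc and 0 for Pgf. The GC box GGGCGG or its reverse complement CCGCCC was found in the window of each of the 7 members, with between 2 and 4 matches, and in 32.7% of all windows. The core of hypoxia response elements comes in a pair of spellings. Of these, ACGTG or its reverse complement CACGT was in none of these 7 windows and in 16.6% of all windows, while the other, GCGTG or CACGC, had 2 matches each for Kdr and Vegfb, 1 each for Flt1 and Pgf and 0 for Flt4, Vegfa and Vegfc, and was in 28.2% of all windows. Vegfa and Pgf each have a second RefSeq promoter that is not counted above. That of Vegfa held 1 match of each hypoxia spelling and 1 GC box, and that of Pgf held 0 of each. The windows of Flt4 and Pgf and the second windows lay inside the gene as annotated by GENCODE. All of these are letter matches, and binding at them was not measured.

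Vegfa (ENSMUSG00000023951), the central growth factor of blood vessels, lies on the minus strand of chromosome 17 from 46016993 to 46032369. It was found at 169.9, 72.4 and 55.6 CPM in the wt libraries and at 81.8, 91.8 and 43.3 CPM in those labelled flt3L-/-. The wt library of pair 1 was the highest and the knock-out library of pair 3 the lowest, and the groups overlapped. The means were 99.3 ± 61.7 CPM (SD, n = 3) for wt and 72.3 ± 25.6 CPM (SD, n = 3) for flt3L-/-. The log2 fold change of Vegfa was −0.36 (standard error 0.29, 95% interval −1.11 to 0.40, adjusted p = 0.973 in edgeR), with −1.05, 0.34 and −0.36 in the pairs. This value was decided by single pairs, since it was −0.0082 without pair 1 and −0.73 without pair 2. Even in the latter case the adjusted p in edgeR was 0.658, with an unadjusted p of 0.0386 where 7.23% of all genes had a p under 0.05.

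The libraries with extreme Vegfa levels also differed in their markers of stromal cells. The wt library of pair 1 had the highest sum of the 8 fibroblast markers, 17996 CPM, and of the 10 pericyte and smooth muscle markers, 915 CPM. The knock-out library of pair 3 had the lowest sums, 3624 CPM and 276 CPM. The ranges of the groups overlapped, from 7566 to 17996 CPM in wt and from 3624 to 11587 CPM in flt3L-/- for fibroblasts, and from 449 to 915 CPM and from 276 to 568 CPM for pericytes and smooth muscle. None of these markers was at 0 in any library, and their part in the Vegfa values was not tested. In bulk RNA, fewer cells of a type and less RNA per cell cannot be told apart, and this holds for each member.

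Vegfb (ENSMUSG00000024962), a ligand of Flt1 linked to the handling of fatty acids, lies on the minus strand of chromosome 19 from 6982473 to 6987651. It was the scarcest member, with 2.95, 4.38 and 1.04 CPM in wt and 4.19, 2.16 and 1.78 CPM in those labelled flt3L-/-. These values rest on 76, 113 and 28 counts in wt and 115, 51 and 45 counts in flt3L-/-. The highest and the lowest were both wt libraries, and the groups overlapped. The means of Vegfb were 2.79 ± 1.68 CPM (SD, n = 3) and 2.71 ± 1.29 CPM (SD, n = 3), and the log2 fold change was 0.08 (standard error 0.48, 95% interval −1.16 to 1.33, adjusted p = 0.990 in edgeR). The pairs differed by 0.49, −0.99 and 0.73, and the interval leaves room for a change of more than 2-fold in either direction.

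Vegfc (ENSMUSG00000031520), the main ligand of Flt4, lies on the plus strand of chromosome 8 from 54077606 to 54187096. It was found at 93.3, 99.3 and 56.5 CPM in wt and at 47.1, 86.3 and 70.8 CPM in those labelled flt3L-/-. The extremes came from different pairs and the groups overlapped, with the lowest value in the knock-out library of pair 1. The means were 83.0 ± 23.2 CPM (SD, n = 3) and 68.0 ± 19.8 CPM (SD, n = 3). The log2 fold change of Vegfc was −0.29 (standard error 0.28, 95% interval −1.01 to 0.44, adjusted p = 0.973 in edgeR), with −0.99, −0.20 and 0.33 in the pairs. Without pair 1 it was 0.06. Over the 6 libraries the log2 CPM of Vegfc ran opposite to that of Flt1 (Pearson correlation −0.92), and it had a correlation of −0.79 with Flt4, its own receptor. Both are descriptions of 6 libraries that share 3 sorting dates.

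Pgf (ENSMUSG00000004791), placental growth factor, binds Flt1 and not Kdr, and lies on the minus strand of chromosome 12 from 85166635 to 85177790. The wt libraries held 35.4, 47.8 and 31.8 CPM, and the libraries labelled flt3L-/- held 39.4, 77.1 and 276 CPM. The 3 wt libraries and the knock-out library of pair 1 lay close together, the knock-out library of pair 2 lay above them and that of pair 3 far above the rest. The groups still overlapped, because wt of pair 2 was above flt3L-/- of pair 1. The means were 38.3 ± 8.35 CPM (SD, n = 3) and 131 ± 127 CPM (SD, n = 3), so the SD of the knock-out group was nearly as large as its mean. The log2 fold change of Pgf was 1.27 (standard error 0.64, 95% interval −0.40 to 2.95, adjusted p = 0.973 in edgeR). Its unadjusted p of 0.107 ranked 1269 among the 13475 genes.

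The size of the Pgf value rested on pair 3. The differences were 0.15, 0.69 and 3.11 on the log2 scale in the pairs, and the last is an 8.67-fold difference between the libraries. The fit gave 0.42 without pair 3, 1.90 without pair 1 and 1.62 without pair 2, and in none of these did Pgf have an unadjusted p under 0.05, where 1.94%, 2.58% and 7.23% of all genes did. Without the sorting date in the model it was 1.77 (unadjusted p = 0.0356 and adjusted p = 0.998 in edgeR). A higher level in 3 of 3 pairs was found for 1909 genes, 14.2% of those tested. Only 19 genes (0.141%) had a fitted log2 fold change as high as that of Pgf or higher, and 8 genes (0.0594%) had a difference as large in pair 3. In DESeq2 the unadjusted p of Pgf was 0.0139 and the adjusted p 0.838, where 4.76% of all genes had an unadjusted p under 0.05.

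The knock-out library of pair 3 also stood apart in its markers. It held the lowest fibroblast and pericyte sums given above, the lowest lymphatic sum and the highest endothelial sum, 7811 CPM. Not every endothelial marker was high there. Vwf was 87.7 CPM and Cdh5 223 CPM, each the lowest of the 6 libraries, and Eng was 749 CPM against 927 CPM in the wt partner. The other endothelial markers were above that partner. The macrophage and monocyte sum of this library over 9 markers, none at 0 in any library, was 104 CPM, against 1776 CPM in its wt partner. Lyz2 made up most of both sums, with 67.4 CPM and 1527 CPM. C1qb (3.64 against 3.43 CPM) and C1qc (2.73 against 2.27 CPM) were slightly higher in the knock-out library, and the other markers of the list were lower. In pair 1 the knock-out library had the higher sum, with 324 CPM against 44.2 CPM. The macrophage sum ranged from 44.2 to 1776 CPM in wt and from 104 to 1044 CPM in flt3L-/-. The part of these markers in the Pgf value was not tested. The neighbouring genes on chromosome 12 were also higher in the knock-out library of pair 3. Rps6kl1, 15.4 kb away, had 21.3, 20.8 and 23.5 CPM in wt and 25.6, 27.7 and 42.5 CPM in those labelled flt3L-/-, with no overlap of the groups (log2 fold change 0.51, unadjusted p = 0.0374 in edgeR). Eif2b2, 41.7 kb away on the other side, had 46.3, 60.8 and 61.8 CPM in wt and 67.2, 63.5 and 139.7 CPM in those labelled flt3L-/-, again without overlap (log2 fold change 0.59, unadjusted p = 0.0609 in edgeR). These are 2 of the 6.45% of genes whose groups did not overlap.

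**Figure D2:**
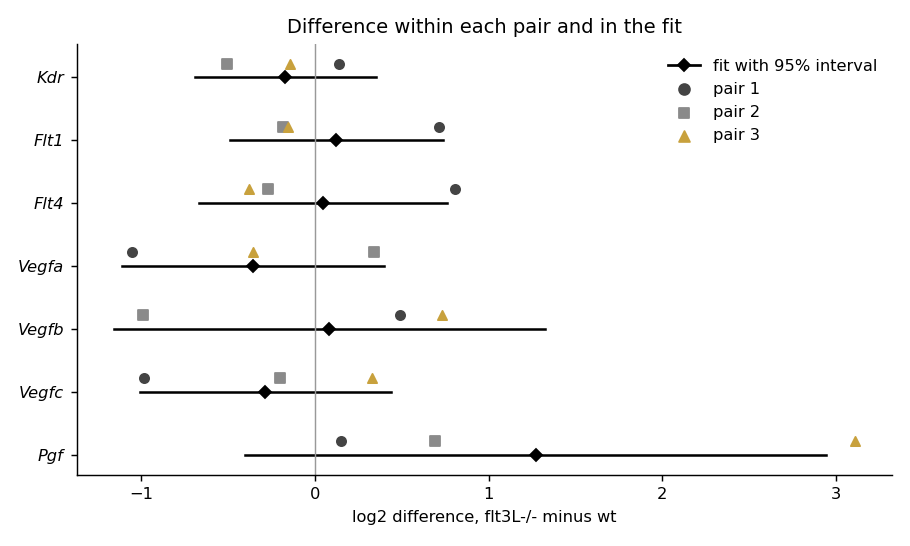
Log2 difference between flt3L-/- and wt for each member, within each of the 3 pairs (coloured symbols) and in the fit of all 6 libraries (diamond, with the 95% interval as a bar). Each interval spans 0, and the widest is that of Pgf, from −0.40 to 2.95, whose pair 3 lies at 3.11.

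Levels of different genes were compared per kb of exons, as CPM divided by the length of all annotated exons of the gene. In wt, Kdr stood at 395 ± 30.1 CPM per kb (SD, n = 3) and Flt1 at 53.9 ± 10.3 CPM per kb (SD, n = 3). They were followed by Vegfc with 33.9 ± 9.47, Vegfa with 23.2 ± 14.4 and Flt4 with 22.5 ± 4.18 CPM per kb (SD, n = 3 each). The last places were held by Pgf with 13.2 ± 2.88 and Vegfb with 1.74 ± 1.04 CPM per kb (SD, n = 3 each). Over all 6 libraries the values of Kdr did not overlap those of Flt1, those of Flt1 did not overlap those of Vegfc and those of Pgf did not overlap those of Vegfb. The mean of Kdr in wt was 7.33 times that of Flt1, and the mean of Pgf was 7.59 times that of Vegfb. The other neighbours overlapped over the 6 libraries. Vegfc was above Vegfa in 5 of 6 libraries, Vegfa above Flt4 in 2 of 6 and Flt4 above Pgf in 4 of 6. In wt alone, Flt4 was above Pgf in 3 of 3 libraries and their values did not overlap, with at least 17.9 CPM per kb of Flt4 against at most 16.5 CPM per kb of Pgf. With the longest transcript as the length, Vegfa and Flt4 changed places.

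**Figure D3:**
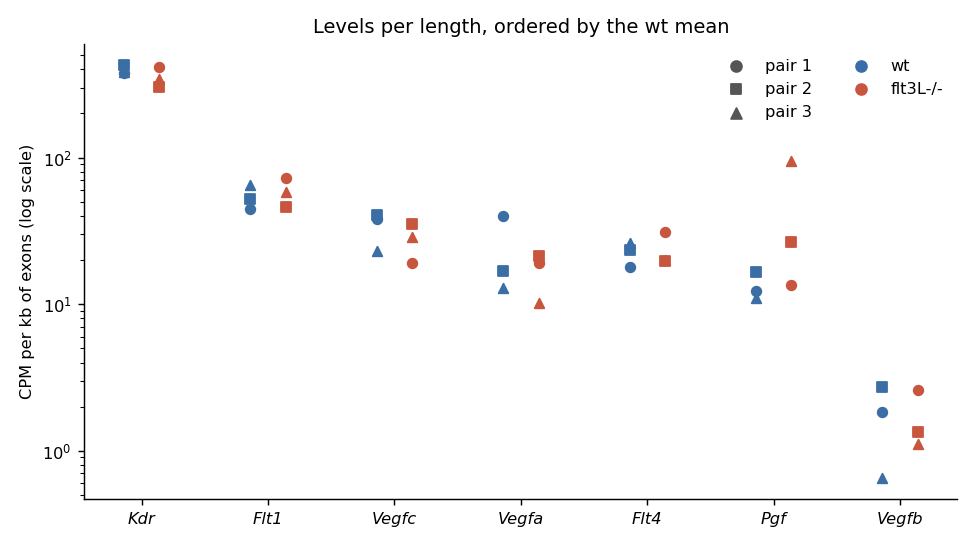
Level of each member in CPM per kb of exons on a log scale, in wt (blue) and in the libraries labelled flt3L-/- (red), with 1 symbol per pair. Kdr lies above and Vegfb below all other members in each library, and Pgf has its highest value, 95.1 CPM per kb, in the knock-out library of pair 3.

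In each of the wt libraries Pgf was 6th of the 7 members, and in the libraries labelled flt3L-/- it was 6th in pair 1, 4th in pair 2 and 2nd in pair 3, where its 95.1 CPM per kb exceeded the 58.2 CPM per kb of Flt1. Pgf made up 13.3%, 21.5% and 23.0% of the summed ligand level per kb in wt and 24.9%, 31.4% and 70.3% in the libraries labelled flt3L-/-. The ratio of Pgf to Vegfa per kb was 0.308, 0.973 and 0.845 in wt and 0.710, 1.24 and 9.40 in flt3L-/-. Higher shares and ratios were thus found in the knock-out library of each pair, although the ratios overlapped between the groups. The shares of Pgf did not overlap, with 23.0% as the highest in wt and 24.9% as the lowest in flt3L-/-. A share also depends on the other ligands. In pair 1 Pgf itself was 12.2 CPM per kb in wt and 13.6 CPM per kb in flt3L-/-. Vegfa went from 39.6 to 19.1 CPM per kb in that pair, and Vegfc from 38.1 to 19.2 CPM per kb. The level of Pgf alone overlapped between the groups. No test was made on the shares because they are sums over chosen genes. Vegfc made up between 21.4% and 52.9% of the ligand sum, Vegfa between 7.48% and 43.2% and Vegfb between 0.820% and 4.79%. The summed receptors were 4.76, 6.60 and 9.92 times as high as the summed ligands in wt, and 9.49, 4.35 and 3.13 times as high in flt3L-/-, without a common direction in the pairs.

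The genes whose log2 CPM ran most like that of a member were taken by Pearson correlation over the 6 libraries, as a description. For Vegfa these were Tmem132c (0.998), Smim3 (0.996) and Negr1 (0.995), and each had its highest level in the wt library of pair 1 and its lowest in the knock-out library of pair 3. For Pgf they were Vil1 (0.996), Gbp2 (0.996) and Grpel1 (0.994). Each was highest in the knock-out library of pair 3, where Pgf stood far above the rest. Vil1 was scarce, at 1.94 to 2.69 CPM, and Grpel1 varied only from 43.4 to 61.3 CPM. Gbp2, an interferon-induced GTPase, had 158, 180 and 165 CPM in wt and 174, 225 and 379 CPM in those labelled flt3L-/-, so here too the high values were those of pairs 2 and 3. For Flt1 the nearest genes were Dennd3 (0.994), Zfp946 (0.991) and Adgrg1 (0.990), and for Flt4 they were Erlin2 (0.993), Ncoa3 (0.991) and Itpkb (0.989). Kdr ran most like Agbl3 (0.988), Vegfb like R3hdm2 (0.998) and Vegfc like Zbtb24 (0.999). Zbtb24 varied only from 17.5 to 20.3 CPM, where Vegfc varied from 47.1 to 99.3 CPM. Agbl3 was scarce, at 1.61 to 3.80 CPM. Between 63 genes for Kdr and 484 genes for Vegfa, of 13474 compared, had a correlation above 0.9.

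The remaining ligand and the co-receptors of the family did not pass the test. Vegfd, which like Vegfc binds Flt4, had 10.3, 7.92 and 4.17 CPM in wt and 3.35, 7.68 and 3.96 CPM in those labelled flt3L-/-. It was lower in 3 of 3 pairs, as were 11.5% of all genes (log2 fold change −0.57, standard error 0.42, unadjusted p = 0.231 in edgeR). Nrp2, the neuropilin that joins Flt4, had 156, 217 and 187 CPM in wt and 289, 157 and 200.2 CPM in flt3L-/- (log2 fold change 0.17, standard error 0.28, unadjusted p = 0.575 in edgeR). Its highest value was in the knock-out library of pair 1, where Flt1 and Flt4 also peaked. Nrp1, which joins Kdr, lay between 1230 and 1663 CPM.

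The genes that carry, limit or answer the VEGF signal were gathered in 8 lists of 112 genes, of which 111 were tested. No gene of these lists was called at an adjusted p under 0.05 in edgeR or DESeq2. At an unadjusted p under 0.05, 2 genes were higher in the libraries labelled flt3L-/- and 0 were lower, against 1.11% and 2.49% of all genes tested. The groups did not overlap for 5 of the 111 genes, against 6.45% of all genes tested. The median log2 fold change of the 111 genes was −0.09, against −0.00027 for all genes tested, and that of the 7 members was 0.05, with 4 positive and 3 negative values.

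Of the 45 relay genes behind the receptors, 1 passed at the unadjusted level. This was Hspb1, a small heat shock protein that acts on actin downstream of Kdr, with 365, 401 and 540 CPM in wt and 615, 484 and 1179 CPM in those labelled flt3L-/-. The knock-out library was the higher one in each pair, as for 14.2% of all genes, but the groups overlapped (log2 fold change 0.72, standard error 0.21, unadjusted p = 0.0200 and adjusted p = 0.973 in edgeR). The relay genes had a median of −0.11. Nos3, the endothelial nitric oxide synthase, had 523, 499 and 605 CPM in wt and 728, 496 and 758 CPM in flt3L-/- (log2 fold change 0.27, unadjusted p = 0.165 in edgeR). Sh2d2a, an adaptor that binds Kdr and is also known from T cells, had the smallest value of the list, −1.49 (standard error 0.59, unadjusted p = 0.0562 in edgeR). Its levels were 21.3, 36.9 and 67.2 CPM in wt and 9.80, 29.6 and 7.68 CPM in flt3L-/-. The pairs differed by −1.11, −0.32 and −3.12. Nkg7 and Ncr1, which mark NK cells, differed by −1.07, −0.17 and −3.14 and by −1.67, −0.13 and −3.45 in the same pairs, while the T cell gene Cd3e differed by 1.87, 0.61 and −1.88. The part of these cells in the value of Sh2d2a was not tested.

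Of 14 genes known to respond to VEGF, none had an unadjusted p under 0.05, and their median was −0.20. Apln, the ligand that marks growing vessel tips, had 8.94, 10.7 and 10.9 CPM in wt and 11.1, 13.2 and 27.2 CPM in those labelled flt3L-/-. These groups did not overlap, which held for 6.45% of all genes tested. The knock-out library of pair 3 stood above the others (log2 fold change 0.64, standard error 0.28, unadjusted p = 0.0685 in edgeR). Dll4, the Notch ligand of tip cells, had its highest value, 484 CPM, in that library too, against 230 to 319 CPM in the other 5 libraries (log2 fold change 0.49, unadjusted p = 0.0927 in edgeR). Nr4a2, an early response gene, had 469, 165 and 212 CPM in wt and 241, 157 and 162 CPM in flt3L-/- (log2 fold change −0.47, unadjusted p = 0.0747 in edgeR). Nr4a2 was highest in the wt library of pair 1, as were Nr4a1 at 1754 CPM, Ptgs2 at 1289 CPM, Thbs1 at 4503 CPM and Adamts1 at 2694 CPM. Vegfa peaked in the same library.

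**Figure D4:**
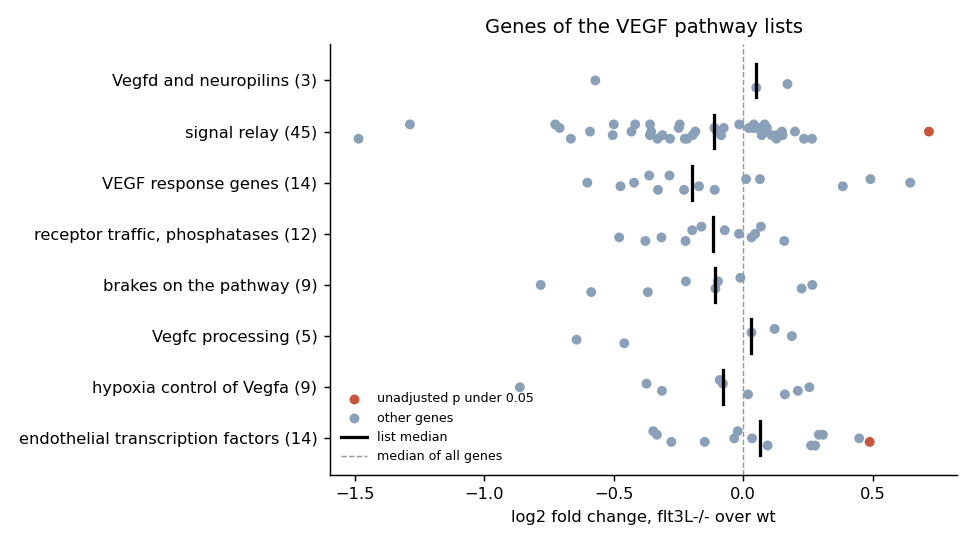
Fitted log2 fold change of each tested gene of the 8 pathway lists (number tested in brackets), with the list median as a black bar and the median of all genes as a dashed line. The genes with an unadjusted p under 0.05, Hspb1 at 0.72 and Sox18 at 0.49, are in red.

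None of the 12 genes of receptor traffic and phosphatases, of the 9 brakes on the pathway, of the 5 genes that process Vegfc or of the 9 genes of hypoxia control passed at the unadjusted level. Their medians were −0.12, −0.11, 0.03 and −0.08. Ptprb, the phosphatase that restrains Kdr, was found at 1300, 1513 and 1545 CPM in wt and at 1738, 1019 and 1085 CPM in those labelled flt3L-/- (log2 fold change −0.22, standard error 0.26). Thbs1, a secreted inhibitor of vessel growth, varied from 484 CPM in the knock-out library of pair 3 to 4503 CPM in the wt library of pair 1 (log2 fold change −0.78, standard error 0.43, unadjusted p = 0.130 in edgeR). Ccbe1 and Adamts3, which are needed to cleave Vegfc to its active form, were scarce, with between 0.633 and 2.10 CPM and between 0.594 and 2.02 CPM. Hif1an, the asparagine hydroxylase that holds back hypoxia inducible factors, had 58.3, 50.7 and 56.0 CPM in wt and 46.7, 40.9 and 45.04 CPM in flt3L-/-. It was lower in 3 of 3 pairs, as were 11.5% of all genes (log2 fold change −0.31, standard error 0.12, unadjusted p = 0.0544 in edgeR). The groups did not overlap, which held for 6.45% of all genes tested. Hif1a was found at 177 to 244 CPM and Epas1, its endothelial relative, at 341 to 860 CPM.

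Of the 15 endothelial transcription factors listed, 14 were tested. Etv2, the early inducer of the endothelial lineage, was not, since its highest level was 0.127 CPM. Sox18 was higher in the libraries labelled flt3L-/- at the unadjusted level, with 100.03, 124 and 184 CPM in wt and 160, 139 and 284 CPM in flt3L-/-, and it overlapped between the groups (log2 fold change 0.49, standard error 0.16, unadjusted p = 0.0297 and adjusted p = 0.973 in edgeR). Its relative Sox7 had 185, 167 and 184 CPM in wt and 226, 182 and 350.4 CPM in flt3L-/- (log2 fold change 0.45, unadjusted p = 0.0778 in edgeR). The endothelial markers, none at 0, had a sum of 5042, 6503 and 6776 CPM in wt and 7434, 5798 and 7811 CPM in flt3L-/-, higher in the knock-out library of pairs 1 and 3 and lower in that of pair 2. Their part in the values of Sox18, Sox7, Hspb1 and the receptors was not tested.

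**Figure D5:**
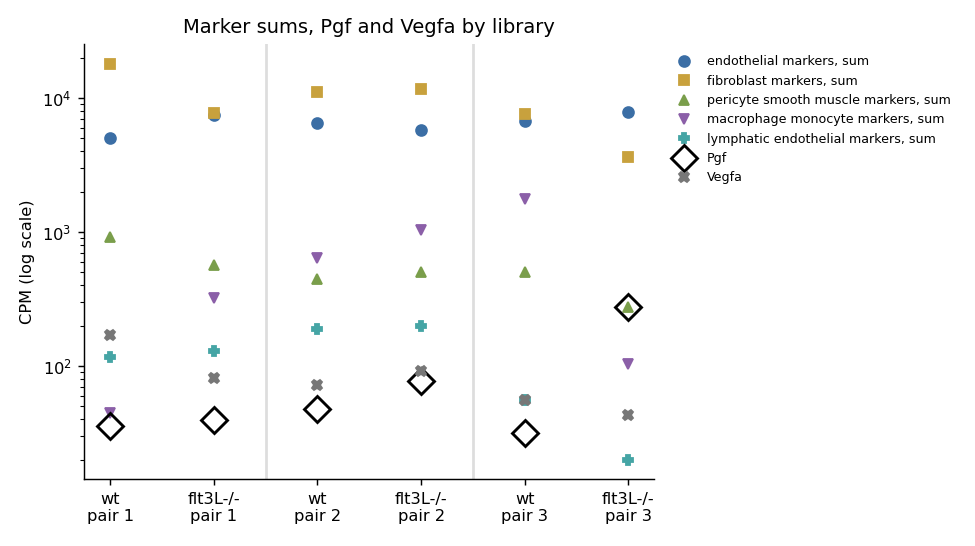
Summed CPM of 5 lists of cell type markers in each library, with Pgf (open diamond) and Vegfa (grey cross), on a log scale, with the pairs separated by grey lines. The fibroblast sum and Vegfa are highest in the wt library of pair 1 (17996 and 169.9 CPM) and lowest in the knock-out library of pair 3 (3624 and 43.3 CPM), where Pgf is highest (276 CPM).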

How the data were processed

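RNA of sorted cardiac SP cells was sequenced in 6 libraries, 3 per group. The authors deposited raw counts of reads per gene, without normalization. Unstranded SMART-Seq v4 libraries gave single reads of 81 bases, which were mapped to mm10 with STAR 2.5.2a after FastQC 0.11.3, with up to 10 hits allowed, and counted with QuasR on Ensembl release 88. A read with several equally good hits was placed at random, and none of the members shares exon bases with another gene. Totals were 24370913 to 31145519 counts per library.

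Positions and lengths came from GENCODE M21 (GRCm38), which held 50376 of the 50600 gene identifiers. Protein-coding genes above 1 CPM in 2 or more libraries were compared with edgeR 4.0.16 in R 4.3.3 (TMM factors, glmQLFit and glmQLFTest with legacy = TRUE, sorting date as a covariate), and p-values were adjusted with Benjamini-Hochberg over all 13475 genes. Standard errors were derived from the fold change and the F statistic. The fit had a common dispersion of 0.0978, with 2 residual and 2.79 prior degrees of freedom. CPM used TMM factors, and differences within pairs and correlations used log2 CPM with a prior count of 2. Alternatives were DESeq2 1.42.0, 3 other normalizations, legacy = FALSE, other gene filters, all biotypes, no date covariate and each pair left out.

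The pairs come from the sorting dates in the labels, since the numbers in the library titles differ between the groups. After removal of group means the deviations of paired libraries had correlations of 0.180, 0.104 and 0.116, against −0.354 to 0.247 for other library pairs. Libraries are pools of mice and the sorting date is in the model. The p-values therefore measure the spread of the difference between 3 pairs of sorts, and not that between mice. No library was a copy of another (chi-square per degree of freedom at least 33.7).

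The members and lists were chosen with earlier results of these data known. Named are the members, the 3 genes of each list with the highest level per kb and the 3 with the smallest p, the 3 genes most correlated with each member and the nearest genes on each side, of which the text gives those that bear on it. Marker lists of cell types were summed per library. Beside those in the text, the sums in wt and flt3L-/- were 126 to 179.7 and 186 to 217 CPM for cardiomyocytes, 243 to 419 and 372 to 491 CPM for erythroid cells, 206 to 316 and 255 to 425 CPM for dendritic cells and neutrophils (Flt3 and Ly6g at 0 in a library), 21.4 to 57.5 and 35.7 to 51.8 CPM for mesothelium, 14.2 to 20.1 and 15.2 to 21.5 CPM for cycling cells and 1909 to 3124 and 2519 to 3519 CPM for the SP list. The cardiomyocyte sums did not overlap between the groups, and their part in the results was not tested. The sum of 1 further list is not reported here. Promoter sequences are those of RefSeq on GRCm38.p6. Protein sequences were not used here.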

Additional observations from a re-analysis of the deposited data

How the results depend on the processing

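Each of the 7 member fold changes was recomputed under 12 alternatives. Of these 84 values, 78 kept their direction, 6 reversed and 0 were called. DESeq2 called 21 of the 13475 genes, and every other alternative called 0, as did edgeR with the sorting date. Without the block for the sorting date, the log2 fold changes were 1.77 for Pgf, −0.46 for Vegfa, −0.29 for Vegfc, −0.16 for Kdr, 0.13 for Flt1 and 0.07 for Flt4, and Vegfb turned to −0.041, and 262 genes had an unadjusted p under 0.05 in place of 484. The pairing changed no member's call. The other reversals came from leaving out a pair. Without pair 1, Flt1 was −0.17, Flt4 −0.32, Vegfc 0.061 and Vegfb −0.15, and without pair 3 Vegfb was −0.25. When each pair was left out in turn, the values ranged from 0.42 to 1.90 for Pgf, −0.73 to −0.0082 for Vegfa, −0.25 to 0.61 for Vegfb, −0.59 to 0.061 for Vegfc, −0.33 to −0.02 for Kdr, −0.17 to 0.27 for Flt1 and −0.32 to 0.27 for Flt4. The number of genes with an unadjusted p under 0.05 was then 348, 974 and 261 without pair 1, 2 and 3. With the longest transcript as the gene length, Vegfa ranked 5 and Flt4 ranked 4 among the members. The cause of these changes was not tested. With 3 pairs the member intervals are wide. The widest is that of Pgf, from −0.40 to 2.95, with differences of 0.15, 0.69 and 3.11 in the pairs. Depth bears mainly on Vegfb, which rests on 28 to 115 counts per library.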
